A study of Mus musculus with 19 samples.

Results

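The transcripts described here are those of transferrin receptor 1 (Tfrc, called Tfr1 in the study, which examined it as a receptor for the muscle-secreted protein Musclin) and of 9 other genes of iron handling. The 10 genes were taken by symbol: Tfrc, Tfr2, Trf, Fth1, Ftl1, Slc40a1, Slc11a2, Hamp, Aco1 and Ireb2. All 10 were among the 55573 genes of the 7-tissue table and the 55487 genes of the BAT table, and 9 were among the 13756 genes of the iWAT table, which did not list Hamp. Expression was measured by RNA-seq in 19 libraries of male mice on the C57BL/6J background, as FPKM, the number of sequenced fragments scaled to transcript length and to the mapped total of the library. The 7-tissue table held 1 wild-type (WT) library from each of small intestine, brown and white adipose tissue, liver, brain, heart and the tibialis anterior, a leg muscle, with no treatment or age given. The other tables held inguinal white adipose tissue (iWAT) and brown adipose tissue (BAT) of adult WT and MCK-Musclin mice fed chow, 3 libraries per group, all housed in the cold (8 °C, 1 week), so that no group at room temperature was part of the genotype comparisons. MCK-Musclin mice carried the full-length Musclin coding sequence (gene Ostn) driven by the promoter of muscle creatine kinase, a gene of muscle cells. Several founder lines were made, and the labels do not say which line the sequenced mice came from.

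Cells take up iron mainly as iron-loaded transferrin, the carrier protein of plasma that Trf encodes and that liver secretes. Tfrc, on most cells, and Tfr2, a sensor of iron-loaded transferrin on hepatocytes and erythroid precursors, bind transferrin, and Slc11a2 (DMT1) moves the released iron out of the endosome and, in the gut, from the lumen into the enterocyte. Iron that is not used is stored inside shells of ferritin heavy (Fth1) and light (Ftl1) subunits or leaves through the exporter ferroportin (Slc40a1), which hepcidin (Hamp), a hormone of the liver, removes from the cell surface. Aco1 (IRP1) and Ireb2 (IRP2) are the iron regulatory proteins. In iron-poor cells they bind hairpins called iron-responsive elements in messenger RNAs, where binding near the 5′ end blocks translation and binding in the 3′ untranslated region stabilises the transcript. A transcript level alone therefore does not give the level of ferritin or ferroportin protein.

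The hairpins are shown because they set which members the iron regulatory proteins can bind and at which end of the transcript. They were sought in the annotated untranslated regions as a 6-base loop, CAGTG and a free last base, closed by 5 base pairs over a single unpaired C and at least 4 of 5 further pairs, with G to T pairs allowed. Of 21901 protein-coding genes searched, 17 (0.0776%) held such a hairpin, 6 in the 5′ and 11 in the 3′ untranslated region, and 4 of the 10 members were among them. Coordinates are of GRCm38, sequences are the transcribed strand of GENCODE M21 transcripts written as DNA from 5′ to 3′, and capitals mark the loop.
Tfrc, 3′ untranslated region, chr16:32631220-32631246, plus strand: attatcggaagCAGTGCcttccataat
Tfrc, 3′ untranslated region, chr16:32631599-32631625, plus strand: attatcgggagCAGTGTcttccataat
Tfrc, 3′ untranslated region, chr16:32631664-32631690, plus strand: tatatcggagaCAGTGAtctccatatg
Tfrc, 3′ untranslated region, chr16:32631711-32631737, plus strand: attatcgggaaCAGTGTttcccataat
Fth1, 5′ untranslated region, chr19:9982733-9982759, plus strand: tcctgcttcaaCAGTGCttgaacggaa
Ftl1, 5′ untranslated region, chr7:45459780-45459806, minus strand: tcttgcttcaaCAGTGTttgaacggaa
Slc40a1, 5′ untranslated region, chr1:45925466-45925492, minus strand: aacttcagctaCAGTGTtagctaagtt
Tfrc was the only member with hairpins in the 3′ untranslated region, and it held 4 of them, whereas the storage and export genes held 1 each in the 5′ untranslated region. No hairpin that met these pairing rules was found in the annotated untranslated regions of Tfr2, Trf, Slc11a2, Hamp, Aco1 or Ireb2, which says only that these letters were not in those windows.

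The libraries were checked before the members were read. Musclin (Ostn) was listed at 0 in the 3 WT BAT libraries and at 37.9, 31.6 and 30.3 FPKM in the MCK-Musclin BAT libraries. In iWAT it stood at 0, 0 and 0.225 FPKM in WT and at 0, 5.17 and 4.21 FPKM in MCK-Musclin libraries 1, 2 and 3, so the transgene gave no check of the label of MCK-Musclin iWAT library 1. That library also had few skeletal muscle transcripts, with a summed level of 8 markers of 8.05 FPKM against 95.4 and 107 FPKM in the other 2 MCK-Musclin libraries and 9.07 to 2557 FPKM in WT. Each of the 7 tissues had its own marker list at the highest summed level, for example 37800 FPKM of hepatocyte markers in liver and 4871 FPKM of enterocyte markers in small intestine. Among the brown adipose markers, Ucp1, the uncoupling protein of brown fat, was at 467 FPKM in the brown adipose library of the 7-tissue table and 2778 to 3792 FPKM in the cold WT BAT libraries. In these bulk samples fewer cells of a type and less RNA per cell cannot be told apart.

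Across the 7 tissues, Tfrc was present in every library and varied less than most other members, whereas Tfr2, Trf and Hamp were concentrated in liver. Small intestine had the highest level of 5 members (Tfrc, Fth1, Slc40a1, Slc11a2 and Ireb2), liver of 4 (Tfr2, Trf, Ftl1 and Hamp) and white adipose tissue of 1 (Aco1). Of the 18327 genes that reached 1 FPKM in some tissue, 27.1% had their highest level in small intestine, 8.18% in liver and 20.2% in white adipose tissue. Each tissue was a single library, so these levels have no replicate error and no order between neighbouring tissues was tested.

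Tfrc (chr16:32608920-32632794, plus strand) was listed at 38.4 FPKM in small intestine, 31.3 in brown adipose tissue, 26.0 in brain, 25.3 in tibialis anterior, 11.8 in heart, 11.5 in white adipose tissue and 7.58 in liver. The highest level was 5.07 times the lowest and 1.23 times the second. The order of the first 2 depended on the scaling: with the 10 most abundant genes of each library left out of it, brown adipose tissue stood above small intestine by 0.0043 on the log2(FPKM + 1) scale. Tfr2 (chr5:137569840-137587481, plus strand) was concentrated in liver, with 74.6 FPKM there, 5.23 in brain, 0.293 in white adipose tissue, 0.260 in brown adipose tissue, 0.119 in small intestine, 0.110 in tibialis anterior and a listed value of 0 in heart. Liver thus held 92.5% of the summed Tfr2 level of the 7 tissues and the lowest Tfrc level. Trf (chr9:103204001-103230444, minus strand), the ligand of both receptors, reached 1238 FPKM in liver and 380 in white adipose tissue, against 42.7 in brain, 17.8 in brown adipose tissue, 4.77 in small intestine, 3.93 in heart and 2.48 in tibialis anterior. The ligand was therefore at 380 FPKM in the white and at 17.8 FPKM in the brown adipose library, while Tfrc stood at 11.5 and 31.3 FPKM in the same libraries.

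Fth1 had the highest level of the 10 members in every tissue except liver. Fth1 (chr19:9980598-9985098, plus strand) stood at 499 FPKM in small intestine, 390 in white adipose tissue, 324 in brain, 253 in brown adipose tissue, 209 in liver, 176 in heart and 148 in tibialis anterior, a range of 3.37 times. Ftl1 (chr7:45457944-45459884, minus strand) stood at 425 FPKM in liver, 278 in small intestine, 241 in white adipose tissue, 120 in brown adipose tissue, 58.1 in brain, 53.8 in heart and 37.1 in tibialis anterior, a range of 11.5 times. Liver was the only tissue in which the light subunit was above the heavy subunit on this per-length scale. Ftl1 has processed copies in the genome that could share its reads: Ftl1-ps1 was listed at up to 33.2 FPKM and Ftl2-ps at up to 23.4 FPKM in the 7 tissues, and small intestine and white adipose tissue changed places for Ftl1 when values were rescaled to TPM. How the counting divided reads between the gene and its copies is not given in the sources used here.

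**Figure D1:**
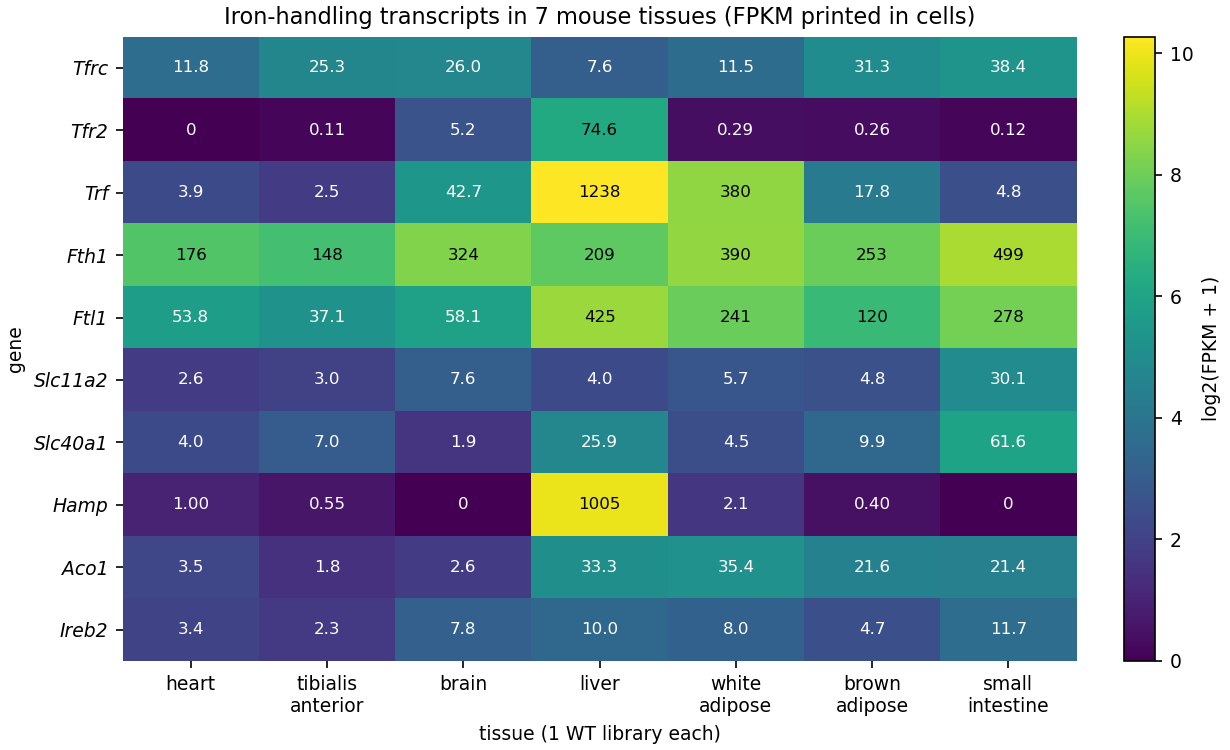
FPKM of the 10 iron-handling genes (rows) in the 7 WT tissues (columns), 1 library each; colour gives log2(FPKM + 1) and the FPKM is printed in each cell. Hamp (1005 FPKM), Trf (1238 FPKM) and Tfr2 (74.6 FPKM) peak in liver, and Slc40a1 (61.6 FPKM), Slc11a2 (30.1 FPKM) and Tfrc (38.4 FPKM) in small intestine.

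The transporters were highest in small intestine, where dietary iron enters. Slc11a2 (chr15:100387898-100425072, minus strand) stood at 30.1 FPKM there, 7.64 in brain, 5.74 in white adipose tissue, 4.80 in brown adipose tissue, 3.98 in liver, 2.96 in tibialis anterior and 2.59 in heart. Slc40a1 (chr1:45908068-45926523, minus strand) stood at 61.6 FPKM in small intestine, 25.9 in liver, 9.90 in brown adipose tissue, 6.96 in tibialis anterior, 4.55 in white adipose tissue, 3.97 in heart and 1.90 in brain. Small intestine held 52.1% of the summed Slc11a2 level and 53.7% of the summed Slc40a1 level of the 7 tissues. Hamp (chr7:30942368-30944032, minus strand) was at 1005 FPKM in liver, 2.08 in white adipose tissue, 0.999 in heart, 0.551 in tibialis anterior and 0.396 in brown adipose tissue, and was listed at 0 in brain and small intestine. Liver held 99.6% of its summed level, the most concentrated pattern of the 10 members. Its neighbour Hamp2, a gene of closely related sequence, reached at most 31.9 FPKM in the 7 tissues.

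The iron regulatory proteins differed in spread. Aco1 (chr4:40143081-40198338, plus strand), which is also the cytosolic aconitase, stood at 35.4 FPKM in white adipose tissue, 33.3 in liver, 21.6 in brown adipose tissue, 21.4 in small intestine, 3.53 in heart, 2.57 in brain and 1.79 in tibialis anterior. Adipose tissues, liver and gut were thus above 20 FPKM, and muscle, heart and brain below 4 FPKM. Ireb2 (chr9:54863789-54912530, plus strand) stood at 11.7 FPKM in small intestine, 9.99 in liver, 8.03 in white adipose tissue, 7.83 in brain, 4.70 in brown adipose tissue, 3.37 in heart and 2.32 in tibialis anterior. The highest and the lowest tissue were 19.8 times apart for Aco1 and 5.03 times apart for Ireb2.

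Over the 7 tissues, the 5 genes whose log2 levels were most like those of Tfrc, of 13443 compared, were Sh2b1 (Pearson's r = 0.973), Tesk1 (0.955), Flvcr1 (0.932), Acrbp (0.928) and Prdm16 (0.892). Flvcr1 encodes a transporter first described as a heme exporter, and Prdm16 a regulator of brown and beige fat. Among the members, Slc11a2 came closest (r = 0.57) and Hamp was farthest (r = -0.74). Over the 6 iWAT libraries the 5 most alike of 12196 genes were Cldn22 (0.995), Aacs (0.981), Parm1 (0.979), Sycp3 (0.978) and Glud1 (0.974), and Aco1 was the closest member (0.83). No gene was in both groups of 5. These are descriptions over few libraries that share tissue, depth and scaling.

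The fat libraries of the 3 tables are set side by side, with no test, because the tables were normalised separately. They may also differ in temperature and in age, since neither is given for the 7-tissue mice, and such differences cannot be told apart. The white adipose library of the 7-tissue table was labelled without a depot, so it may also differ from iWAT in depot. In brown fat, Tfrc was at 31.3 FPKM in the 7-tissue table and at 6.62, 6.84 and 5.29 FPKM in the cold WT BAT libraries. Slc40a1 was likewise higher in the 7-tissue library, at 9.90 FPKM against 2.46 to 3.34 FPKM. Tfr2 stood the other way, at 0.260 FPKM against 3.40 to 5.02 FPKM, as did both ferritin subunits, Fth1 at 253 against 323 to 365 FPKM and Ftl1 at 120 against 200 to 302 FPKM. In white fat, Tfrc was at 11.5 FPKM in the 7-tissue table, within the 8.67 to 11.6 FPKM of the cold WT iWAT libraries, and Trf was at 380 FPKM, within 204 to 444 FPKM. Most genes lay outside the range of the cold WT libraries in this setting. Among genes with a mean of at least 1 FPKM over the libraries compared, 4 of 9 members were above it in brown fat (54.7% of all genes) and 3 below it (26.2%), and in white fat 4 of 8 members were above it (43.3%) and 1 below it (34.7%).

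The first genotype comparison asked which iWAT transcripts differ between cold-exposed MCK-Musclin and WT mice. Of the 9 members, all with a mean of at least 1 FPKM, none passed an adjusted p of 0.05 in limma, nor did any of the 12197 genes tested (0%, smallest adjusted p = 0.0912). Unadjusted p-values under 0.05 (two-sided) were obtained for 2 members, Fth1 and Aco1, both lower in MCK-Musclin mice, where 3.44% of all genes tested were lower at that threshold. No member was higher at that threshold, against 13.1% of all genes. The MCK-Musclin libraries did not overlap the WT libraries for 3 members, below them for Fth1 and Aco1 (5.44% of all genes) and above them for Ftl1 (17.9% of all genes). The median difference of the 9 members was -0.12 on the log2(FPKM + 1) scale, with 6 of 9 lower, against a median of 0.061 and 38.7% lower over all genes. Tfr2, counted among the 6, reached the mean of 1 FPKM only through WT library 2, so the filter itself favoured a lower sign. Without that library 8 members were tested and 5 were lower. The share of all genes that were lower depended on the scaling, at 47.1% after rescaling to TPM, 51.3% with median-ratio scaling and 50.9% with quantile normalization. The study's reporting notes state that RNA-seq used separate animals, 2 or 3 in each group. Each group here had 3 libraries, which were taken as 3 animals.

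Tfrc itself was at 11.6, 8.98 and 8.67 FPKM in WT iWAT and at 9.96, 7.11 and 8.73 FPKM in MCK-Musclin iWAT. The groups overlapped, and the means of 9.74 ± 1.60 and 8.60 ± 1.43 FPKM (SD, n = 3) were closer than the spread of either group. The limma difference was -0.16 ± 0.16 (SE) on the log2(FPKM + 1) scale with a 95% confidence interval from -0.53 to 0.20 (adjusted p = 0.639). This interval bounds the transcript and not the receptor protein at the cell surface. Tfr2 was near the detection filter, at 0.890, 1.89 and 0.842 FPKM in WT and 0.941, 0.997 and 0.724 FPKM in MCK-Musclin libraries, with WT library 2 alone above 1 FPKM. Trf was at 234, 204 and 444 FPKM in WT and 279, 268 and 220 FPKM in MCK-Musclin libraries. WT library 3 was the high one, and without it the Trf difference turned from -0.12 to 0.22 on the log2 scale. That library also held the most skeletal muscle marker RNA, 2557 FPKM. The part of that RNA in the Trf level was not tested.

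The ferritin subunits had estimates of opposite sign in iWAT. Fth1, the subunit with ferroxidase activity, was at 275, 260 and 284 FPKM in WT and at 212, 219 and 248 FPKM in MCK-Musclin libraries, so every MCK-Musclin value was below every WT value. The means were 273 ± 12.5 and 226 ± 18.9 FPKM (SD, n = 3), a log2 difference of -0.27 ± 0.10 (SE, limma unadjusted p = 0.0303, adjusted p = 0.254). Ftl1, the subunit that aids iron deposition in the shell, was at 298, 282 and 262 FPKM in WT and at 306, 302 and 333 FPKM in MCK-Musclin libraries, every one above the WT range, with a log2 difference of 0.16 ± 0.10 (SE, limma adjusted p = 0.458). The gap between the nearest libraries, 298 and 302 FPKM, was small beside the spread within each group. The separation of Ftl1 depended on the scaling. After rescaling to TPM and with median-ratio scaling its groups overlapped, at log2 differences of 0.11 and 0.080.

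**Figure D2:**
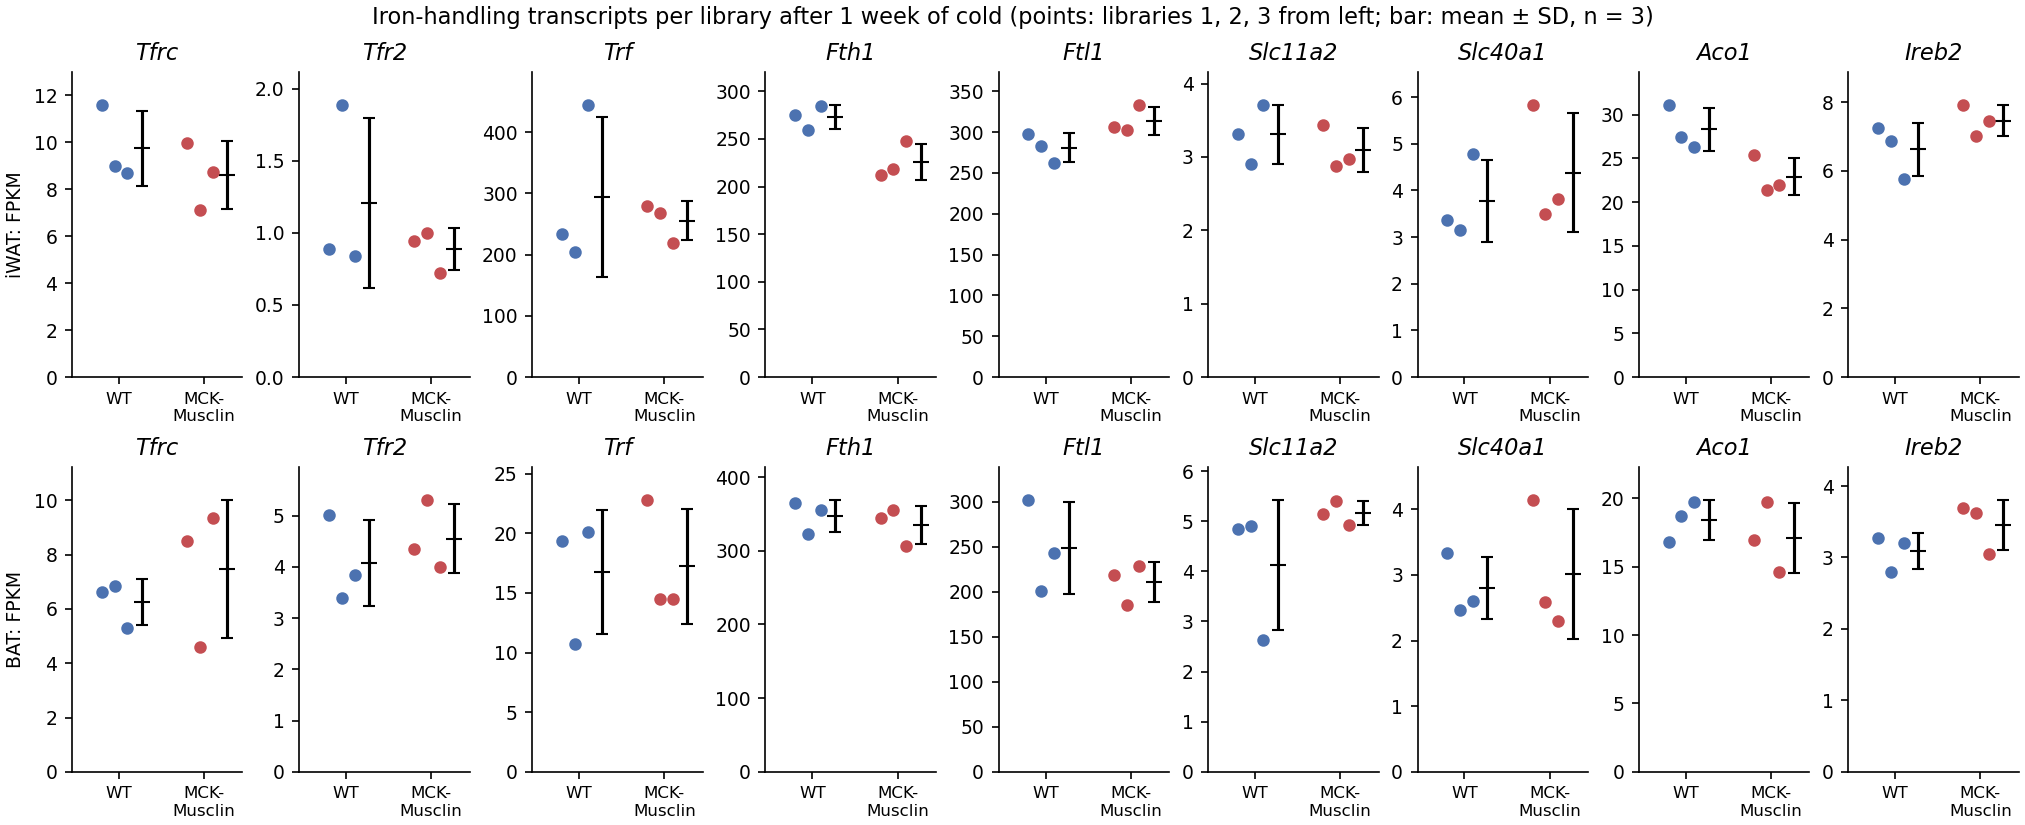
FPKM of the 9 iron-handling genes tested, per library, in cold iWAT (top) and cold BAT (bottom); points are libraries 1, 2 and 3 of WT (blue) and MCK-Musclin (red) and bars give mean ± SD, n = 3. In iWAT the 3 MCK-Musclin points lie below all WT points for Fth1 and Aco1 and above them for Ftl1; in BAT this holds only for Slc11a2, which lies above.

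The ratio of the subunits was read within each library, where the scaling of the library cancels. In WT iWAT the Fth1 to Ftl1 ratio of FPKM was 0.924, 0.919 and 1.09, and in MCK-Musclin iWAT it was 0.692, 0.725 and 0.743. The ranges did not overlap, with means of 0.977 ± 0.0945 and 0.720 ± 0.0258 (SD, n = 3; exact two-sided permutation p = 0.1, the smallest that 20 divisions allow; 0.4 when adjusted over the 8 ratios tested). With Fth1 below and Ftl1 above the WT range in every MCK-Musclin library, this ratio had to separate. Its p therefore adds nothing beyond the values of the 2 subunits. The ratio of the iron regulatory proteins, Aco1 to Ireb2, was 4.29, 4.01 and 4.57 in WT and 3.20, 3.06 and 2.96 in MCK-Musclin iWAT. These ranges also did not overlap, with means of 4.29 ± 0.283 and 3.07 ± 0.122 (SD, n = 3). The exact two-sided permutation p was again 0.1, and 0.4 when adjusted over the 8 ratios tested. Aco1 alone also separated the genotypes, whereas Ireb2 overlapped. Of the other ratios, Tfrc to Slc40a1 and Fth1 to Tfrc overlapped between the genotypes in iWAT, and all 4 overlapped in BAT. With 3 libraries against 3 no such test can pass 0.05.

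Aco1 was at 31.1, 27.5 and 26.3 FPKM in WT and at 25.3, 21.4 and 22.0 FPKM in MCK-Musclin iWAT, without overlap. The gap between the nearest Aco1 libraries, 25.3 and 26.3 FPKM, was small beside the spread within each group. Its log2 difference was -0.29 ± 0.11 (SE, limma unadjusted p = 0.0301, adjusted p = 0.253). Ireb2 was at 7.26, 6.85 and 5.76 FPKM in WT and 7.92, 7.01 and 7.44 FPKM in MCK-Musclin libraries, which overlapped (log2 difference 0.15 ± 0.11, SE, limma adjusted p = 0.540). The 2 regulators thus had estimates of opposite sign. The transporters overlapped as well: Slc40a1 was at 3.38, 3.15 and 4.78 FPKM in WT and 5.84, 3.49 and 3.82 FPKM in MCK-Musclin libraries, and Slc11a2 at 3.32, 2.90 and 3.70 FPKM against 3.43, 2.87 and 2.97 FPKM. The high Slc40a1 value was that of MCK-Musclin library 1, and without it the difference went from 0.17 to -0.019 on the log2 scale.

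**Figure D3:**
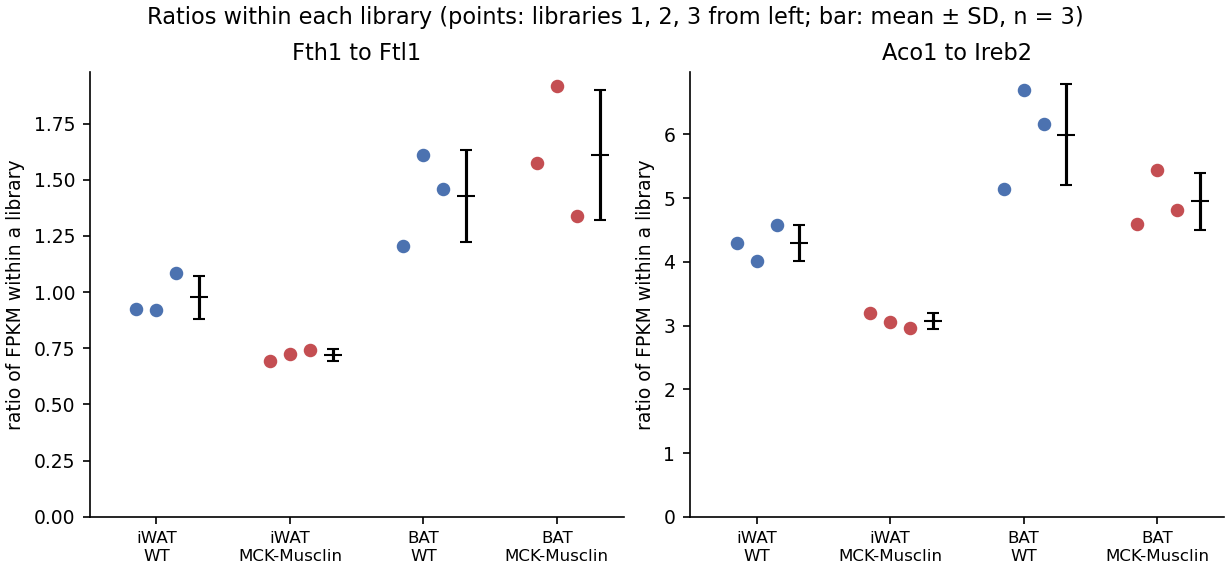
FPKM ratios of Fth1 to Ftl1 (left) and Aco1 to Ireb2 (right) within each library of cold iWAT and BAT; points are libraries 1, 2 and 3 of WT (blue) and MCK-Musclin (red), bars give mean ± SD, n = 3. In iWAT every MCK-Musclin library lies below every WT library in both panels (0.692 to 0.743 against 0.919 to 1.09 for ferritin), and in BAT the genotypes overlap.

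Markers of other cell types also differed between the genotypes in the same iWAT libraries. The 10 adipocyte markers were all lower, with a summed level of 15920 to 17630 FPKM in MCK-Musclin and 17810 to 18950 FPKM in WT libraries. The 7 brown and beige markers were lower too, 5 of them at an unadjusted p under 0.05, with sums of 641, 221 and 115 FPKM in MCK-Musclin libraries 1, 2 and 3 and 569 to 1063 FPKM in WT. All 6 B cell and all 6 T cell markers were higher at that threshold, with sums of 274 to 367 against 128 to 245 FPKM and of 148 to 154 against 81.8 to 107 FPKM. The 11 macrophage markers were all higher, 4 at that threshold, with sums of 779 to 1125 FPKM against 725 to 801 FPKM. The part of these shifts in the member differences was not tested. With each library centred on its adipocyte markers, the differences were -0.082 for Fth1, -0.10 for Aco1 and 0.35 for Ftl1 beside a median of 0.25 over all genes, and the genotypes overlapped for Fth1 and Aco1. Under that centring Fth1 and Aco1 no longer had an unadjusted limma p under 0.05. Ftl1 (adjusted p = 0.0982) and Ireb2 (log2 difference 0.34, adjusted p = 0.136) did have one. Most genes were higher under this centring, with 12.9% of all genes below 0 and 935 at an adjusted limma p under 0.05. A higher Ftl1 or Ireb2 there is therefore not read as a result about these members. Without MCK-Musclin library 1, the differences were -0.23 for Fth1 and -0.36 for Aco1. Leaving out any single library left 1 or 0 members at an unadjusted p under 0.05 in these smaller fits. The differences ranged from -0.23 to -0.34 for Fth1 and from -0.23 to -0.36 for Aco1. Groups that do not overlap cannot come to overlap when a library is left out, so these fits do not check the separation.

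In BAT the question was the same. None of the 9 members tested passed an adjusted p of 0.05 in limma, where 1 of 10893 genes (0.00918%), Ostn, did. None had an unadjusted p under 0.05, against 2.71% of all genes lower and 2.18% higher at that threshold. The median difference of the members was 0.058 on the log2(FPKM + 1) scale with 3 of 9 lower, against -0.0084 and 52.3% over all genes. The MCK-Musclin libraries lay outside the WT range for 1 member, Slc11a2, above it (4.38% of all genes).

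Tfrc was at 6.62, 6.84 and 5.29 FPKM in WT BAT and at 8.50, 4.59 and 9.37 FPKM in MCK-Musclin BAT. MCK-Musclin library 2 was the lowest and library 3 the highest of the 6, and the means of 6.25 ± 0.842 and 7.48 ± 2.55 FPKM (SD, n = 3) differed by less than the spread of the MCK-Musclin group. The limma difference was 0.18 ± 0.24 (SE; 95% confidence interval from -0.37 to 0.73, adjusted p = 0.972). Without library 3 it was 0.014, and without library 2 it was 0.46 ± 0.15 (unadjusted p = 0.0177, adjusted p = 0.827). Tfr2 was at 5.02, 3.40 and 3.83 FPKM in WT and 4.36, 5.31 and 3.99 FPKM in MCK-Musclin BAT. Its level in cold BAT was thus above the 0.724 to 1.89 FPKM listed for iWAT, a comparison between tables that was not tested. Trf was at 19.3, 10.7 and 20.1 FPKM in WT and 22.8, 14.5 and 14.4 FPKM in MCK-Musclin BAT, against 204 to 444 FPKM in iWAT.

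The ferritin transcripts of BAT overlapped between the genotypes. Fth1 was at 365, 323 and 355 FPKM in WT and 344, 356 and 306 FPKM in MCK-Musclin BAT (log2 difference -0.053 ± 0.090, SE, limma adjusted p = 0.982). Ftl1 was at 302, 200 and 243 FPKM in WT and 218, 186 and 229 FPKM in MCK-Musclin BAT (log2 difference -0.22 ± 0.16, SE, limma adjusted p = 0.968), with its copy Ftl1-ps1 at 7.47 to 11.3 FPKM. The Fth1 to Ftl1 ratio was 1.21, 1.61 and 1.46 in WT and 1.58, 1.92 and 1.34 in MCK-Musclin BAT. The heavy subunit was above the light subunit in each of the 6 BAT libraries.

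Slc11a2 was at 4.85, 4.91 and 2.63 FPKM in WT and at 5.15, 5.40 and 4.92 FPKM in MCK-Musclin BAT. The nearest values, 4.91 and 4.92 FPKM, were almost the same, and WT library 3 was far below the others. The log2 difference was 0.30 ± 0.20 (SE, limma adjusted p = 0.968) and 0.066 without WT library 3. Slc40a1 was at 3.34, 2.46 and 2.60 FPKM in WT and 4.15, 2.59 and 2.30 FPKM in MCK-Musclin BAT. Aco1 was at 16.8, 18.7 and 19.7 FPKM in WT and 16.9, 19.7 and 14.6 FPKM in MCK-Musclin BAT, and Ireb2 at 3.27, 2.80 and 3.21 FPKM against 3.69, 3.62 and 3.04 FPKM. All of these overlapped. Hamp was listed at 0.048 FPKM in WT library 2 and at 0 in the other 5 libraries and was not tested. MCK-Musclin BAT library 1, with the highest Trf and Slc40a1 values, also had the highest macrophage marker sum, 152 FPKM against 55.3 to 70.5 FPKM in the other 5 libraries, and the highest skeletal muscle sum, 1238 FPKM. Skeletal muscle markers differed between the genotypes in BAT, with sums of 1238, 520 and 742 FPKM in MCK-Musclin and of 341, 511 and 318 FPKM in WT libraries, and all 8 were higher in MCK-Musclin mice, 6 of them at an unadjusted p under 0.05. Without MCK-Musclin library 1 the Slc40a1 and Trf differences were -0.13 and -0.15 in place of 0.058 and 0.058. Erythroid markers summed to 2284 to 2380 FPKM in MCK-Musclin and 1545 to 1969 FPKM in WT BAT. The part of muscle and erythroid RNA in the member values was not tested.

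**Figure D4:**
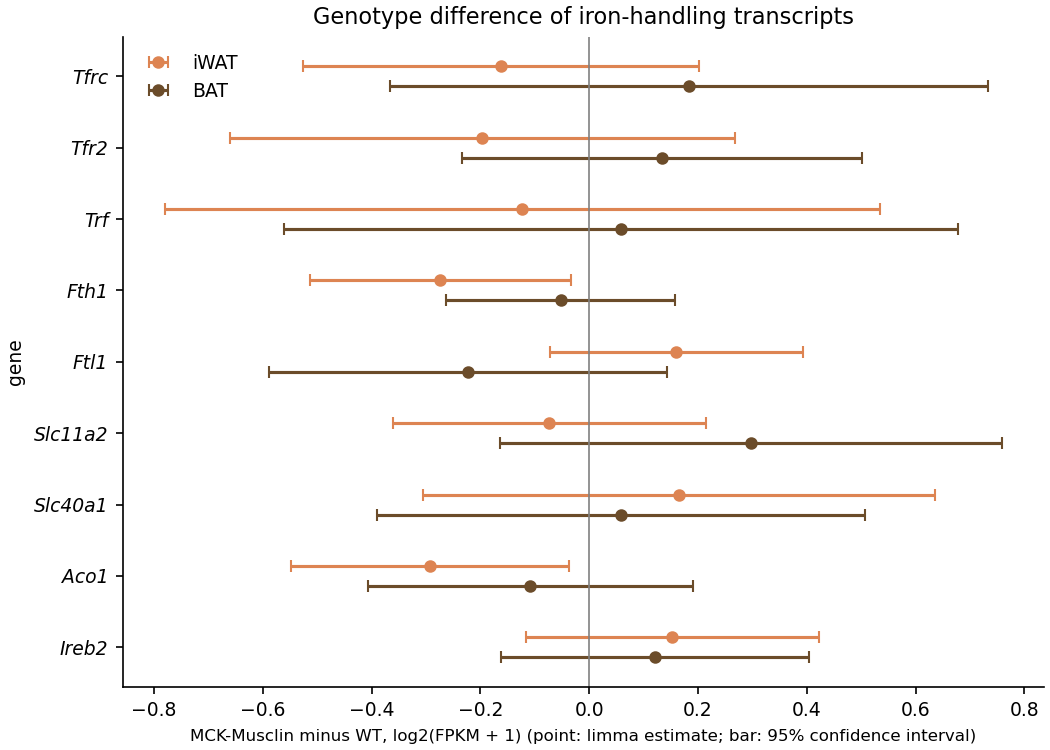
Genotype difference (MCK-Musclin minus WT, log2(FPKM + 1)) of the 9 members tested, in cold iWAT (orange) and cold BAT (brown); points are limma estimates and bars 95% confidence intervals, unadjusted. Only the iWAT intervals of Fth1 (-0.51 to -0.034) and Aco1 (-0.55 to -0.037) leave out 0, and neither gene passed after adjustment over all genes.

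Whether the genotype difference itself differed between iWAT and BAT was tested with the interaction term of a limma fit over the 12 libraries. The labels do not say whether iWAT and BAT libraries came from the same mice, and the fit took all 12 as independent. None of the 9 members passed an adjusted p of 0.05 among 9757 genes tested in both tables (0%), and none had an unadjusted p under 0.05 (10.1% of all genes). The smallest p among the members was that of Ftl1, whose difference in iWAT exceeded that in BAT by 0.38 ± 0.20 (SE; 95% confidence interval from -0.050 to 0.82, adjusted p = 0.534). For Tfrc the term was -0.35 ± 0.30 (SE; interval from -1.01 to 0.32, adjusted p = 0.741), for Fth1 -0.22 ± 0.14 (adjusted p = 0.613) and for Aco1 -0.18 ± 0.17 (adjusted p = 0.749). The differences of Fth1 and Aco1 in iWAT were therefore not shown to be particular to that depot.

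The other genes of iron and heme handling were taken as 8 lists of 55 genes. In iWAT 49 were tested and none passed the adjusted threshold (limma, smallest adjusted p = 0.187). At an unadjusted p under 0.05, 5 were lower and 0 higher in MCK-Musclin mice, where 3.44% of all genes were lower and 13.1% higher. Of the 49, 28 were below 0, with a median of -0.064, against 38.7% and 0.061 over all genes as deposited, which shifted with the scaling. The 4 genes of iron regulatory protein control and other transcripts known to carry iron-responsive elements were all below 0 (median -0.24). Epas1 (HIF-2alpha), a hypoxia-induced transcription factor, was at 94.0, 98.0 and 100.4 FPKM in WT and 78.8, 81.5 and 80.3 FPKM in MCK-Musclin iWAT, a difference of -0.28 ± 0.083 (SE, limma adjusted p = 0.187). Fbxl5, which marks the iron regulatory proteins for degradation in iron-rich cells, averaged 18.9 ± 2.56 and 18.1 ± 0.382 FPKM.

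Heph (hephaestin), the ferroxidase that works with ferroportin, was at 13.4, 14.6 and 14.5 FPKM in WT and 9.38, 12.6 and 10.1 FPKM in MCK-Musclin iWAT, a log2 difference of -0.38 ± 0.12 (SE, limma adjusted p = 0.210). It was the only ferroxidase of the 2 tested to reach an unadjusted p under 0.05. Among 12 genes of mitochondrial iron and iron-sulfur cluster assembly 8 were below 0 (median -0.064), and Isca1, an assembly factor, was at an unadjusted p under 0.05 (-0.32 ± 0.13, SE, limma adjusted p = 0.287), with overlapping libraries. Among 8 heme synthesis genes 5 were below 0 (median -0.17), and Fech, which inserts iron into heme, lay below the WT range in every MCK-Musclin library (-0.26 ± 0.11, SE, limma adjusted p = 0.296). The heme uptake and breakdown list lay the other way (median 0.19, 2 of 6 below 0), with Hmox1, the inducible heme oxygenase, at 51.1 ± 6.81 and 63.6 ± 12.4 FPKM and Blvra, a biliverdin reductase, at 33.4 ± 2.73 and 38.5 ± 2.11 FPKM in WT and MCK-Musclin mice, and neither passed a threshold. In the other lists no gene had an unadjusted p under 0.05. The smallest p-values belonged to Exoc6 (0.13) and Steap2 (0.30) in uptake and endosomal release (9 tested, median 0.052), with the log2 difference in parentheses. In hepcidin control (5 tested, median -0.10) they belonged to Neo1 (-0.22) and Bmp6 (-0.32), and among iron chaperones (3 tested, median -0.12) to Pcbp2 (-0.14) and Ncoa4 (-0.12).

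In BAT 47 of the 55 genes were tested, none passed the adjusted threshold (limma, smallest adjusted p = 0.968), and 25 were below 0 with a median of -0.015. At an unadjusted p under 0.05, 4 were lower and 1 was higher, where 2.71% of all genes were lower and 2.18% higher. Each of the 5 was without overlap of the libraries, as were 5.63% of all genes on the lower and 4.38% on the higher side. The lower ones were Alad (-0.31 ± 0.11) and Alas1 (-0.26 ± 0.11), early enzymes of heme synthesis with Alas1 catalysing the rate-limiting step, Isca2 (-0.32 ± 0.10), an iron-sulfur assembly factor, and Mcoln1 (-0.24 ± 0.098), an ion channel of late endosomes and lysosomes. Iscu, the scaffold on which iron-sulfur clusters are built, was higher, at 194, 182 and 180 FPKM in WT and 259, 215 and 219 FPKM in MCK-Musclin BAT (log2 difference 0.31 ± 0.095, SE, limma adjusted p = 0.968). Within the same assembly list Isca2 and Iscu thus had estimates of opposite sign. In the remaining lists the smallest p-values belonged to Hmox2 (0.34) and Slc48a1 (-0.069), Hjv (0.39) and Id1 (0.17), Cp (0.21) and Hephl1 (0.12), Fbxl5 (0.12) and Epas1 (-0.11), and Pcbp2 (-0.24) and Ncoa4 (-0.057), all log2 differences above an unadjusted p of 0.05.

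**Figure D5:**
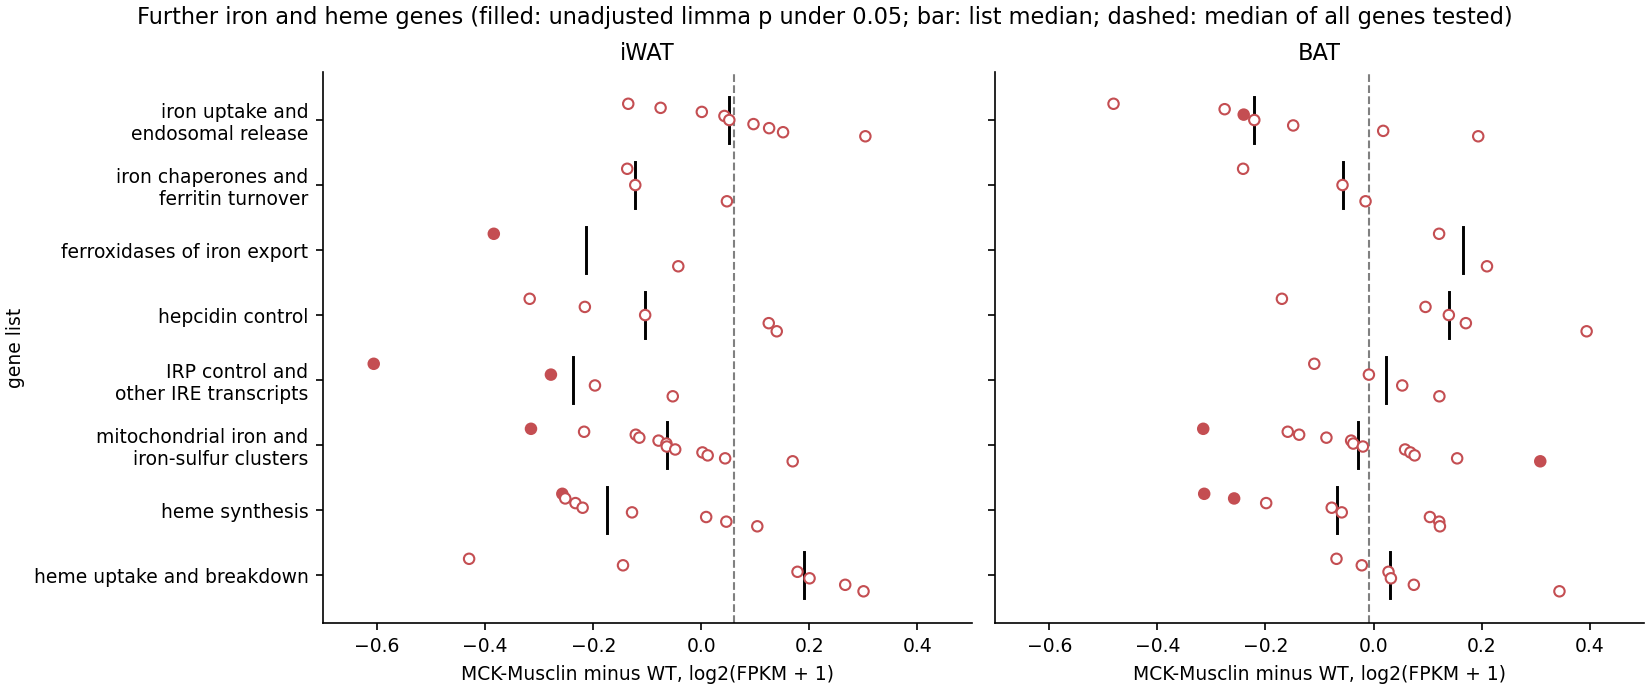
Genotype difference (MCK-Musclin minus WT, log2(FPKM + 1)) of each tested gene of 8 further iron and heme lists in cold iWAT (left, 49 genes) and BAT (right, 47 genes); filled points have an unadjusted limma p under 0.05, black bars are list medians and the dashed line is the median of all genes tested (0.061 and -0.0084). The filled points in iWAT, among them Epas1, Heph, Isca1 and Fech, all lie below 0.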

How the data were processed

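The authors deposited FPKM values per gene and library in 3 tables, for 7 tissues, BAT and iWAT, from poly(A)-selected RNA. Per the paper's methods, reads were trimmed with fastp, aligned without strand with HISAT2 to mm10 (GRCm38) and quantified with StringTie; the submitters' processing notes name Bowtie2, HISAT2 and Cuffdiff, so the quantifier of these values is not settled. Without strand, reads of a gene and an overlapping antisense gene cannot be told apart (Ftl1 and Slc11a2 have such a neighbour), nor can those of Trf and an overlapping same-strand gene. RNA of white fat was extracted with a column kit and that of other tissues with TRIzol, so levels of iWAT and BAT were not tested against each other. The iWAT table also holds 6 columns of the authors' own comparison (fold change, p-values and mean values), which were not used. Repeated lines of a gene were identical and were counted once.

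Sequencing depth is unknown: low values shared a common ratio between libraries for only 1.3 to 5.74% of low genes, so relative depths could not be recovered. Summed FPKM was 393682 to 711437 in the 7 tissues, 676362 to 720852 in BAT and 364710 to 384104 in iWAT, and the 10 most abundant genes held 17 to 52.4%, 48.4 to 51.3% and 11.9 to 13% of it. The study tested counts, which FPKM does not allow. Genes with a mean of at least 1 FPKM over the 6 libraries of a table were tested with limma 3.58.1 in R 4.3.3 (lmFit, eBayes with trend) on log2(FPKM + 1), a scale that understates changes of low genes, with Benjamini-Hochberg adjustment over all genes tested. The fit was checked on simulated data. For ratios, the exact permutation test (two-sided) was used.

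Groups followed the titles of the samples. The members and the further gene lists were chosen with earlier results of these data known. Named were all members, in each further list and depot the genes with an unadjusted p under 0.05 or otherwise the 2 with the smallest p, the gene of each further list with the highest level in the 7 tissues, the 5 genes most like Tfrc over each set of libraries, and Ostn. Alternatives were other pseudocounts, filters, scalings and variance models, a replicate block, and leaving out each library. No alternative was added afterwards. A gene of the further lists that counts and medians include is not reported here.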

Additional observations from a re-analysis of the deposited data

How the results depend on the processing

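No member reached an adjusted p of 0.05 (limma) in any alternative run, in iWAT, BAT or the test of the difference between them. Centring each library on its adipocyte markers called 935 genes in iWAT in place of 0 and turned the iWAT differences of Tfrc (0.029), Trf (0.069), Slc11a2 (0.12), Ncoa4 (0.070) and Pcbp2 (0.055) and the BAT differences of Fth1 (0.060), Aco1 (0.0043), Epas1 (0.0031), Ncoa4 (0.055) and Slc48a1 (0.044). Fth1 in BAT was also turned by quantile normalization (0.021). Members whose BAT groups did not overlap numbered 0 in place of 1 with a mean of at least 5 FPKM, after rescaling to TPM and with centring. For the difference between depots, 1 gene in place of 0 passed with no filter, 1 member in place of 0 had an unadjusted p under 0.05 with median-ratio scaling and with centring, and Ireb2 turned with TPM (-0.037), median-ratio scaling (-0.041) and quantile normalization (-0.042). Tfrc was highest in brown adipose tissue by 0.0043 (-0.0043 in the deposited direction) with the 10 most abundant genes left out of the scaling. The cause was not tested for any of these.

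The replicate block called 0 genes in iWAT, 1 in BAT and 0 between depots, and gave 1 member in place of 0 an unadjusted p under 0.05 between depots. Deviations of same-numbered libraries correlated at 0.235, 0.0615 and 0.107 in iWAT and -0.0951, -0.00463 and 0.00937 in BAT, so the numbers were not taken as pairs, and not every library correlated best with its own number.

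Leaving out single libraries, genes called ranged from 0 to 86 in iWAT (86 without WT 1, 2 without MCK-Musclin 2 and 1 without MCK-Musclin 3), 1 to 4 in BAT (4 without MCK-Musclin 1, 3 without MCK-Musclin 2 and 2 without each WT library) and 0 to 8 between depots (8 without iWAT MCK-Musclin 1). Members with an unadjusted p under 0.05 ranged from 0 to 1 in iWAT (0 without WT 1 and without MCK-Musclin 2), 0 to 1 in BAT and 0 to 1 between depots (1 without BAT WT 2 and without BAT MCK-Musclin 2 in both). Members without overlap in BAT ranged from 1 to 2, and ratios without overlap from 2 to 4 (4 without BAT MCK-Musclin 2). Leaving out a library cannot make separate groups overlap, so the lower ends of these ranges were fixed in advance. The log2 differences that changed sign ranged from -0.019 to 0.31 for Slc40a1 and -0.34 to 0.22 for Trf in iWAT. In BAT they ranged from -0.041 to 0.38 for Cp, -0.10 to 0.011 for Fth1, -0.30 to 0.13 for Ncoa4, -0.13 to 0.19 for Slc40a1, -0.16 to 0.051 for Slc48a1 and -0.22 to 0.21 for Trf. Between depots they ranged from -0.052 to 0.092 for Ireb2, -0.078 to 0.30 for Slc40a1 and -0.40 to 0.16 for Trf. Log2 ratio differences ranged from -0.62 to 0.0030 for Fth1 to Tfrc in BAT, -0.22 to 0.065 in iWAT, and -0.23 to 0.37 for Tfrc to Slc40a1 in BAT. Read depth is unknown, so counting error could not be set apart from the spread between libraries.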

Other observations

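In the 7 tissues the genes with the highest level in each further iron list had distinct distributions, each from a single library. Hjv (hemojuvelin), a coreceptor in the control of hepcidin, stood at 244 FPKM in tibialis anterior and 55.0 in heart and was listed at 0 in small intestine. Alas1, the first enzyme of heme synthesis, stood at 607 FPKM in liver, 199 in white adipose tissue and 15.0 in brain. Cp (ceruloplasmin), the plasma ferroxidase, stood at 250.0 FPKM in liver, 103 in white adipose tissue and 4.10 in tibialis anterior.

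White adipose tissue had the highest level of 3 of these genes. Steap4, a metalloreductase, stood at 342 FPKM there, 111 in brown adipose tissue and 0.0733 in brain. Iscu, the scaffold of iron-sulfur cluster assembly, stood at 177 FPKM there and 144 in brown adipose tissue, and Slc48a1, a heme transporter, at 66.0 FPKM there and 46.5 in brain. Pcbp1, an iron chaperone, was highest in small intestine at 83.0 FPKM, with 49.4 in white adipose tissue.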
